A study of Mus musculus with 18 samples.

Results

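MiR-19a-3p (mmu-miR-19a-3p) and miR-19b-3p (mmu-miR-19b-3p) are the guide strands of the miR-19 family, the strands that are loaded into the silencing complex. They were chosen by name, and they are 2 of the 1265 mature miRNA probes on the array. The arrays measured RNA of splenic B cells, isolated with magnetic beads, from mice that overexpress the miR-17~92 cluster. An Eμ enhancer with an IgH promoter, both active in B cells, drives the transgene. Founder line 79 (Tg79), founder line 9 (Tg9) and wild-type mice (WT) gave 3 miRNA arrays each. Each transgenic group is 1 founder line, so the insertion site of the transgene cannot be told apart from the line. The series' design names 3 wild-type mice and 3 transgenic mice from the founder lines. The labels give no age, strain or other treatment and do not tie each RNA sample to a mouse, so p-values measure only the spread between these samples, which may be technical.

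Primary miR-17~92 is 1 long transcript that is cut into several hairpins, and each hairpin yields a guide and usually a rarer star strand from its other side. A guide finds its target mRNAs mainly through its seed, bases 2 to 8, and lowers their translation and stability. MiR-19 is known from mouse B cell lymphoma models as a main growth-promoting part of the cluster. The same mature miR-19b is also made from a related cluster on the X chromosome that starts with miR-106a, whereas miR-19a is made only from miR-17~92.

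The mature sequences are printed because they set what a probe can tell apart. They come from RefSeq (mouse build GRCm38.p6), where both members matched by name. They are written 5′ to 3′ with the seed in capitals:
miR-19a-3p: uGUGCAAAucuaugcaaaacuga
miR-19b-3p: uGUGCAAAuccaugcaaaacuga
Both are 23 bases long and identical at 22 positions. The single difference is U11C, counted from the 5′ end with the miR-19a base first, and it lies outside the seed. Among 1679 mature mouse miRNA names in the RefSeq table, GUGCAAA was the seed of these 2 only. The probe sequences were not used here, so how far each probe also reads the other member was not tested.

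Within miR-17~92 the miR-19a hairpin is the third of 6 and the miR-19b-1 hairpin the fifth. Mature miR-19a-3p lies at chr14:115044048-115044070 on the plus strand. Mature miR-19b-3p lies at chr14:115044358-115044380 on the plus strand in the first copy. The second copy, in the fourth hairpin of the miR-106a cluster, lies at chrX:52741991-52742013 on the minus strand. The hairpins are shown, with the guide in capitals, because the 2 copies of miR-19b differ only outside the guide:
Mir19a: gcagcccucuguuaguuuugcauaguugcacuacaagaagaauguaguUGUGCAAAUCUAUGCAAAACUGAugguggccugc
Mir19b-1: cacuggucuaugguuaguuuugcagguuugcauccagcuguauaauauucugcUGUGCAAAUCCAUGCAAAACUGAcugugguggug
Mir19b-2: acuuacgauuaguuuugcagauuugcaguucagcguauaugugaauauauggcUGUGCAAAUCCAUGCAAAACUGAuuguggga
A probe for miR-19b-3p therefore cannot say which copy its signal came from. How far the star probes tell the copies apart was not tested. The star strands differ in sequence between the copies, and for that reason these are shown too:
miR-19b-1-5p: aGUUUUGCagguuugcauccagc
miR-19b-2-5p: aGUUUUGCagauuugcaguucagc

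The other guides of miR-17~92 carry other seeds. They are shown because the results below set miR-19 beside them:
miR-17-5p: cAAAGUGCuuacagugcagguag
miR-20a-5p: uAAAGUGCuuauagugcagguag
miR-18a-5p: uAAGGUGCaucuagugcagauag
miR-92a-3p: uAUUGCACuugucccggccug
MiR-17-5p and miR-20a-5p share a seed with each other, and none of the 4 shares that of miR-19.

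Levels below are quantile-normalised log2 intensities, so 1 unit is a doubling. A probe counted as above background when its intensity exceeded the 95th percentile of 24 negative control spots on its array. At least 3 of 9 arrays had to pass, which kept 501 of 1265 probes, both members among them. Probes above background made up 24.4% to 32.3% of all on Tg79 arrays, 33% to 42.6% on Tg9 arrays and 35.1% to 40.8% on WT arrays. The deposited file names carry 3 codes, each with numbered positions, read here as slides. WT1 shares slide 1 with all Tg9 arrays, WT2 shares slide 2 with all Tg79 arrays, and WT3 is alone on slide 3.

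The labelled B cell identity was checked only as far as 7 miRNAs typical of lymphocytes, such as miR-150-5p and miR-142-3p. Such miRNAs do not tell B cells from other lymphocytes. All 7 were above background on all 9 arrays. Their summed intensity was 6637 to 12628 on Tg79 arrays, 11550 to 33820 on Tg9 arrays and 26098 to 30881 on WT arrays. Of 10 miRNAs of myeloid cells, red cells, endothelium and stroma, 4 to 7 were above background on Tg79 arrays, 4 to 8 on Tg9 arrays and 5 or 6 on WT arrays. Their summed intensity was 613 to 916 in Tg79, 758 to 1155 in Tg9 and 719 to 973 in WT. The myeloid miR-223-3p had its highest log2 level on Tg9-1, at 9.10, and read 7.16 to 7.64 on WT arrays. It read 7.47 and 6.57 on the arrays labelled Tg9-2 and Tg9-3, and 6.21 to 6.69 on Tg79 arrays. Sums over different probes cannot be compared with each other, so the share of other cells was not measured. MiR-223-5p and miR-144-3p of this list were above background on 0 arrays. Of 5 miRNAs typical of liver, muscle and brain, miR-124-3p exceeded it on Tg79-1 and miR-9-5p on Tg79-2, and no other reading did. For Tg79 against WT the 7 lymphocyte miRNAs had a median log2 difference of -1.07, and 5 of them read lower. Of the 7, 3 lay below WT without overlap (16.4% of all tested miRNAs did), and 1, miR-181b-5p, was called higher by limma (3.59% of all were). Of the 10 others, 7 were tested and 0 called by limma, where 4.59% of all were called. Among them miR-223-3p lay below WT without overlap in Tg79 (16.4% of all did) and miR-126-3p above it (13% of all did). The lymphocyte sum was lower than on any WT array also on Tg9-1 (16050) and the array labelled Tg9-3 (11550). On the array labelled Tg9-2 (33820) it was higher than on any WT array. The part of these lower sums, or of the high miR-223-3p on Tg9-1, in the results was not tested. In such bulk RNA, fewer cells of a type and less RNA per cell cannot be told apart.

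On the arrays labelled Tg9-2 and Tg9-3 both members read close to WT, which for these members goes against the label of an overexpressing line. Some other arms of the cluster lay slightly above WT on these arrays. MiR-17-5p read 10.60 and 10.86 (highest WT array 10.57) and miR-20a-5p 10.39 and 10.52 (highest WT array 10.26). In Tg9, 3 of the 8 other arms of miR-17~92 lay above WT without overlap, and the rest overlapped. The cause of the low levels on these arrays was not tested. Comparisons that use Tg9 are given with and without these arrays. They were set apart because of their low cluster levels, so leaving them out raises the Tg9 mean of the members by construction.

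MiR-19a-3p was detected on every array, at 3.25 to 33.0 times the background limit. Its log2 level was 9.64, 11.32 and 10.44 on Tg79 arrays 1 to 3. It was 9.67 on Tg9-1, while the arrays labelled Tg9-2 and Tg9-3 read 8.05 and 8.20. The WT arrays 1 to 3 read 7.47, 8.10 and 7.43. All 3 Tg79 arrays lay above all WT arrays. Tg9-1 lay level with Tg79-1, whereas the array labelled Tg9-2 lay just under WT2, so Tg9 overlapped with WT.

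MiR-19b-3p was also detected on every array, at 21.4 to 172 times the limit. It read 12.06, 13.12 and 12.91 on Tg79 arrays 1 to 3. It read 12.69 on Tg9-1, while the arrays labelled Tg9-2 and Tg9-3 read 10.57 and 10.44. The WT arrays read 10.08, 10.52 and 10.15. The same arrays were high and low as for miR-19a-3p: the Tg79 arrays and Tg9-1 stood clear of WT, and the array labelled Tg9-3 lay just under WT2.

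The scanner intensities before any correction or scaling also placed the Tg79 arrays and Tg9-1 above all WT arrays. The order among the other Tg9 arrays and the WT arrays shifted. MiR-19a-3p gave 564, 1907 and 1235 units on the Tg79 arrays, 769, 289 and 257 on Tg9 arrays 1 to 3, and 238, 281 and 237 on the WT arrays. MiR-19b-3p gave 2938, 8750 and 10610 units on the Tg79 arrays, 4985, 1903 and 1166 on the Tg9 arrays, and 1379, 1707 and 1561 on the WT arrays. In these units the array labelled Tg9-3 was the lowest of all 9 for miR-19b-3p, and for miR-19a-3p the array labelled Tg9-3 lay between WT1 and WT2.

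**Figure D1:**
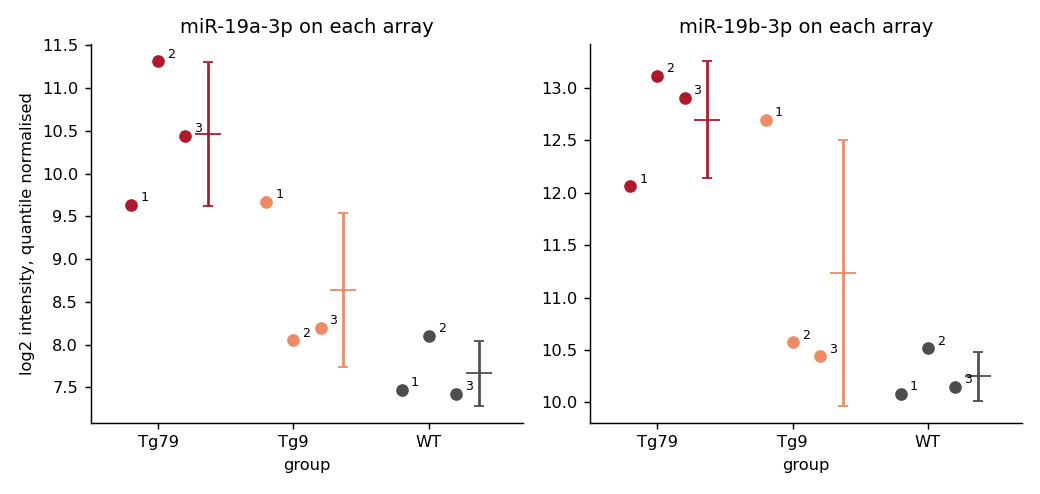
Log2 intensity of miR-19a-3p (left) and miR-19b-3p (right) on each of 9 miRNA arrays, with the replicate number beside each point and the group mean ± SD to its right (n = 3). The y axes are separate and start above 0. All Tg79 points and the Tg9-1 point lie above WT, while the other Tg9 points lie beside WT.

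Tg79 against WT asks how much miR-19 was gained in founder line 79. MiR-19a-3p rose and miR-19b-3p read higher without passing the test over all miRNAs. MiR-19a-3p averaged 10.46 ± 0.84 in Tg79 and 7.67 ± 0.38 in WT (SD, n = 3 each), a 6.96-fold difference (log2 2.80 ± 0.54 SE, limma adjusted p = 0.0387). MiR-19b-3p averaged 12.69 ± 0.56 in Tg79 and 10.25 ± 0.23 in WT, a log2 difference of 2.45 ± 0.59 (limma adjusted p = 0.0624). The 95% interval was 1.53 to 4.07 for miR-19a-3p and 1.06 to 3.83 for miR-19b-3p, so the intervals overlap over most of their length.

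Thus 1 of the 2 members was called, where limma called 23 of 501 miRNAs (4.59%). That count was 11 without Tg79-1, 9 without WT2, and 0 without Tg79-2, WT1, WT3 or the array labelled Tg9-3. Both members stood without overlap above WT, as did 65 of 501 miRNAs (13%). By size of the difference, miR-19a-3p ranked 5 and miR-19b-3p ranked 6 of 501, against a median of -0.04 over all tested miRNAs. On slide 2 alone, the Tg79 arrays lay 1.53, 3.21 and 2.34 above WT2 for miR-19a-3p, a mean of 2.36. For miR-19b-3p they lay 1.55, 2.60 and 2.39 above WT2, a mean of 2.18.

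The call of miR-19a-3p was lost when any 1 WT array, Tg79-2, Tg79-3 or the array labelled Tg9-3 was left out (adjusted p 0.0533 to 0.181), with log2 differences of 2.40 to 2.99. It was also lost with no filter (adjusted p = 0.0782), and with slide as a factor, where the difference was 2.36 (adjusted p = 0.53). MiR-19b-3p was called in 11 of 24 alternatives, among them cyclic loess (2.90, adjusted p = 0.0397), and its log2 difference without Tg9-1 was 2.51 (adjusted p = 0.00664). When normexp also took in the background column, whose log2 values correlated with those of the spots at r of 0.982 to 0.995 across probes, the log2 differences were 0.30 and 0.90 and neither was called.

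**Figure D2:**
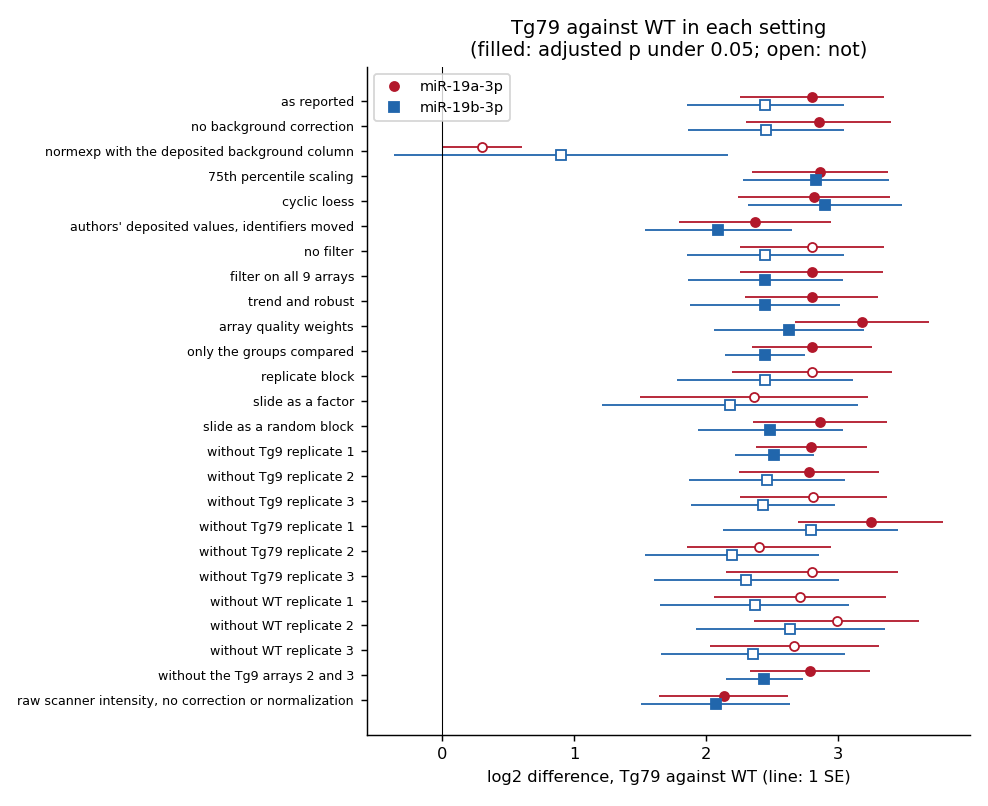
Log2 difference of miR-19a-3p (circles) and miR-19b-3p (squares) for Tg79 against WT in each setting, with lines of 1 SE. Filled marks passed an adjusted p of 0.05 and open marks did not. Every mark lies above 0, and the lowest pair is that of the deposited background column, at 0.30 and 0.90.

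Tg9 against WT gave means 1.97-fold higher for miR-19a-3p and 1.98-fold higher for miR-19b-3p, and neither passed the test. MiR-19a-3p averaged 8.64 ± 0.90 in Tg9 and 7.67 ± 0.38 in WT (SD, n = 3 each), a log2 difference of 0.97 ± 0.54 SE with a 95% interval of -0.29 to 2.24. MiR-19b-3p averaged 11.24 ± 1.26 in Tg9 and 10.25 ± 0.23 in WT, a difference of 0.99 ± 0.59 with an interval of -0.40 to 2.37. Limma gave an adjusted p of 0.99 for each. It called 0 of 501 miRNAs (0%), with 3 (0.599%) at an unadjusted p under 0.05. The groups overlapped for both members, where 3.59% of all tested miRNAs lay above WT without overlap.

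These means describe no single Tg9 array. Compared with WT1 on the same slide, miR-19a-3p was higher by 2.20 on Tg9-1, and by 0.58 and 0.73 on those labelled Tg9-2 and Tg9-3, a mean of 1.17. MiR-19b-3p was higher by 2.61, 0.49 and 0.36, a mean of 1.16. Without Tg9-1 the difference from all WT arrays was 0.45 for miR-19a-3p and 0.27 for miR-19b-3p. Without the arrays labelled Tg9-2 and Tg9-3 it was 2.00 ± 0.64 for miR-19a-3p and 2.48 ± 0.41 for miR-19b-3p. In that fit Tg9-1 borrows its spread from Tg79 and WT, and this single array is no test of the line.

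**Figure D3:**
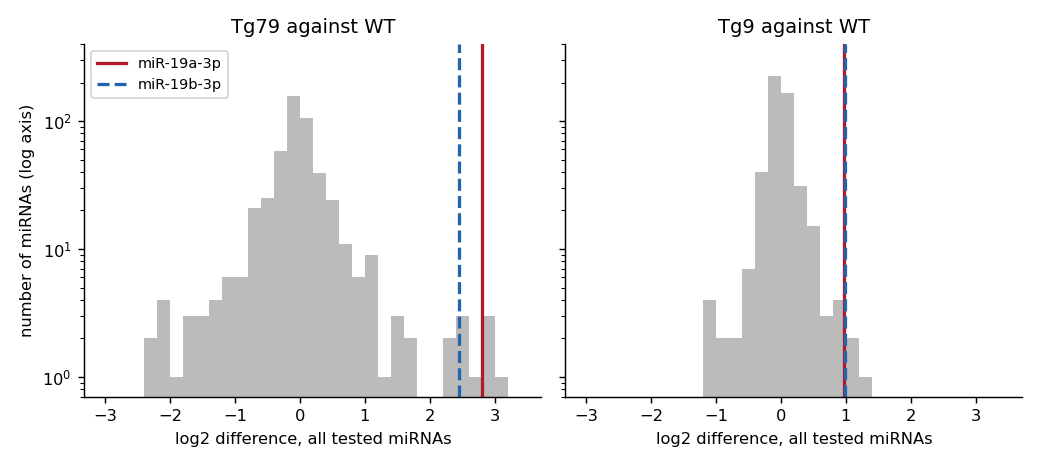
Histogram of the log2 differences of all 501 tested miRNAs for Tg79 against WT (left) and Tg9 against WT (right), with a log axis for the number of miRNAs. Lines mark miR-19a-3p (solid) and miR-19b-3p (dashed), at 2.80 and 2.45 on the left and at 0.97 and 0.99 on the right. Both comparisons use the same WT arrays.

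Transgenic against WT takes the mean of both lines, so it lies between the values above. The log2 difference was 1.89 ± 0.47 SE for miR-19a-3p (limma adjusted p = 0.19) and 1.72 ± 0.51 for miR-19b-3p (limma adjusted p = 0.232), so neither passed. Limma called 0 of 501 miRNAs (0%), with 67 (13.4%) at an unadjusted p under 0.05, both members among them. Neither member separated all 6 transgenic arrays from all WT arrays, because of 1 Tg9 array each, while 2.2% of all tested miRNAs did. Without the arrays labelled Tg9-2 and Tg9-3 the differences were 2.39 and 2.46. Leaving these arrays out raises both by construction, so they are no test.

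Tg79 against Tg9 asks whether the lines differ in miR-19. The log2 difference was 1.82 ± 0.54 SE for miR-19a-3p (limma adjusted p = 0.229) and 1.46 ± 0.59 for miR-19b-3p (limma adjusted p = 0.301). The groups overlapped for both members, while 8.98% of all tested miRNAs were higher in Tg79 without overlap. Limma called 0 of 501 miRNAs (0%), with 77 (15.4%) at an unadjusted p under 0.05, both members among them. Without the arrays labelled Tg9-2 and Tg9-3 the differences were 0.79 and -0.04, and without Tg9-1 they were 2.34 (limma adjusted p = 0.0817) and 2.24 (limma adjusted p = 0.0223). Each line sits on its own slide, and with slide as a factor the differences were 1.19 ± 1.22 and 1.02 ± 1.37.

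The star strands of miR-19, the partner strands that are usually degraded, were near or below background. MiR-19a-5p was not above background on any array, at 0.741 to 0.897 times the limit. MiR-19b-1-5p, the partner from miR-17~92, was above background on Tg79-2 and Tg79-3, on 2 of 3 Tg9 arrays and on 1 of 3 WT arrays. It read 0.911, 1.53 and 1.68 times the limit on Tg79 arrays 1 to 3, 1.21, 0.989 and 1.01 on Tg9 arrays, and 0.832, 1.00 and 0.83 on WT arrays. Its log2 difference was 0.73 for Tg79 against WT (limma adjusted p = 0.0988) and 0.19 for Tg9 against WT, or 0.44 with Tg9-1 as the only Tg9 array. Its size is uncertain so near background.

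MiR-19b-2-5p, the partner from the X chromosome copy, was above background on 0 of 9 arrays, at 0.735 to 0.881 times the limit. Of the 2 star probes of miR-19b, only that for the miR-17~92 copy was thus above the limit on any array. Levels of the 2 star probes cannot be compared with each other, so the share of miR-19b-3p that came from either copy was not measured.

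Within miR-17~92, all 8 other arms on the array rose in Tg79, with a median log2 difference of 2.36 and a range of 0.84 to 2.92. Here 3.59% of all tested miRNAs were called higher. These calls too were lost without Tg79-2, WT1, WT3 or the array labelled Tg9-3, where limma called 0 miRNAs. MiR-20a-5p differed by 2.92, miR-17-5p by 2.91, miR-92a-3p by 2.44 and miR-18a-5p by 2.34, so both miR-19 guides lay within the range of the other guides. Of the 8 arms, miR-92a-1-5p (0.84 in Tg79) was above background only on Tg79-2, Tg79-3 and Tg9-1. It passed the filter through transgenic arrays alone, so its rise is no support of its own. MiR-18a-3p was above background on 1 of 3 WT arrays, and the size of both changes is uncertain so near background. In Tg9 the 8 arms had a median difference of 0.57 and a range of 0.12 to 1.24, and limma called 0 of them. There 3 of the 8, miR-17-5p, miR-20a-5p and miR-20a-3p, lay above WT without overlap, as did 3.59% of all tested miRNAs, and neither miR-19 guide did. Without the arrays labelled Tg9-2 and Tg9-3 the Tg9 median was 1.29 with a range of 0.34 to 2.89, which leaving them out raises by construction. In that fit 6 of the 8 arms were called in Tg79.

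Of 9 other arms of the miR-106a cluster, 6 were tested and 3 rose in Tg79, where 3.59% of all tested miRNAs were called higher. These 3 calls were also lost without Tg79-2, WT1, WT3 or the array labelled Tg9-3. MiR-20b-5p (3.13), miR-106a-5p (2.86) and miR-18b-5p (1.76) are near-identical in sequence to guides of miR-17~92, so their probes may share signal with them, which was not tested. The star strands miR-92a-2-5p (-0.05) and miR-363-5p (-0.06) were not called, nor was the guide miR-363-3p (0.06). MiR-363-3p read 0.774 to 1.22 times the background limit, so near background that a change could be missed. In Tg9 limma called 0 of the 6. There miR-20b-5p (1.12) and miR-106a-5p (0.93) lay above WT without overlap, as did 3.59% of all tested miRNAs, and the rest overlapped. Without the arrays labelled Tg9-2 and Tg9-3 these 2 differences were 2.33 and 2.08, which leaving them out raises by construction.

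**Figure D4:**
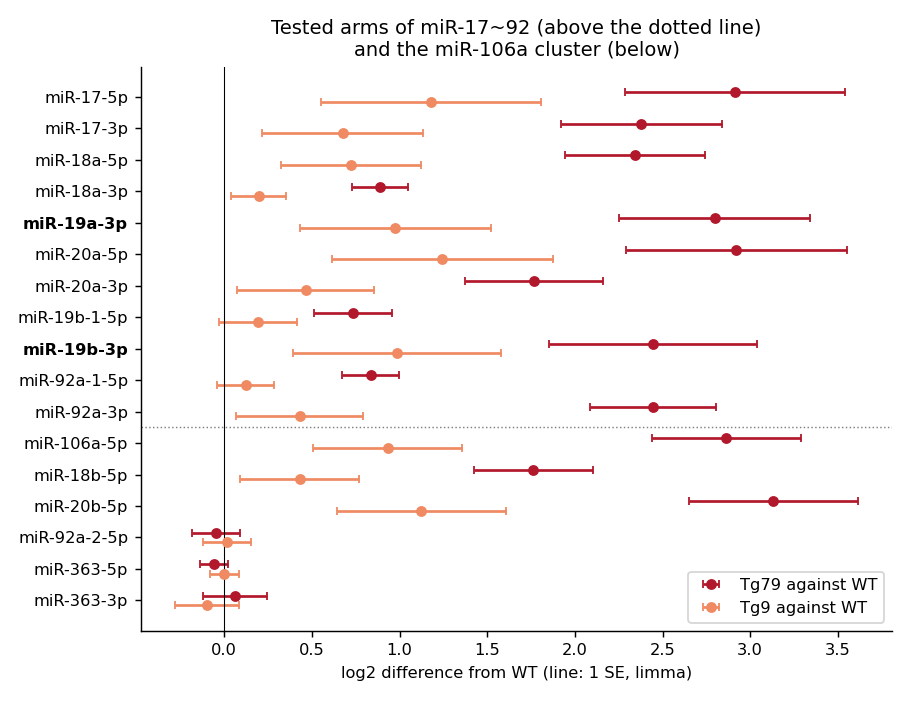
Log2 difference from WT of each tested arm of miR-17~92 (above the dotted line) and the miR-106a cluster (below it), for Tg79 and Tg9, with lines of 1 SE from limma. The miR-19 guides (bold) lie at 2.80 and 2.45 in Tg79 and at 0.97 and 0.99 in Tg9, among the other guides of miR-17~92. Both comparisons use the same WT arrays.

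Whether miR-19 changed by another amount than its neighbours was tested on differences within each array. Each member was set against miR-17-5p and miR-92a-3p, and the members were set against each other, in 4 comparisons. None of the 20 exact permutation p-values was under 0.05, and the smallest after Benjamini-Hochberg adjustment was 0.667. With 3 arrays against 3 the smallest possible exact p is 0.1, and with 6 against 3 it is 0.0119.

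The level of miR-19a-3p minus that of miR-19b-3p was -2.23 ± 0.37 in Tg79 and -2.58 ± 0.16 in WT (SD, n = 3 each). The change of miR-19a-3p thus exceeded that of miR-19b-3p by 0.35 (exact permutation p = 0.3). In Tg9 this value was -0.01 (exact permutation p = 1), and it was -0.48 without the arrays labelled Tg9-2 and Tg9-3. With cyclic loess the Tg79 value turned to -0.08, so no order between the members can be read from it.

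MiR-19b-3p minus miR-17-5p was -0.61 ± 0.39 in Tg79 and -0.14 ± 0.08 in WT, a shift of -0.47 (exact permutation p = 0.1) that was -0.23 without Tg79-1. For all 6 transgenic arrays against WT this value was -0.33 (exact permutation p = 0.155), and without the array labelled Tg9-2 it was -0.44 (exact permutation p = 0.0357). MiR-19a-3p minus miR-17-5p shifted by -0.11 in Tg79 and -0.20 in Tg9 (exact permutation p = 0.9 and 0.8). Relative to miR-92a-3p, miR-19a-3p shifted by 0.35 in Tg79 and 0.54 in Tg9 (exact permutation p = 0.3 and 0.2). MiR-19b-3p shifted by 0.00 and 0.56 relative to miR-92a-3p (exact permutation p = 1 and 0.2). Leaving out 1 array moved the Tg9 value of miR-19b-3p between 0.19, without Tg9-1, and 0.85, without the array labelled Tg9-2. With Tg9-1 as the only Tg9 array, the Tg9 shifts of miR-19a-3p were -0.87 relative to miR-17-5p and 0.86 relative to miR-92a-3p. Those of miR-19b-3p were -0.39 and 1.34, and no test of 1 array against 3 can go below 0.25.

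Over the 9 arrays the members followed each other, with a Pearson r of 0.97 and a Spearman rho of 0.917. These points share arrays, slides and normalisation, and the groups differ in level, so the values are descriptions. Among 498 other tested miRNAs with any spread, miR-19a-3p was most like miR-17-3p (r = 0.987), miR-20b-5p (0.983), miR-20a-3p (0.982), miR-18a-5p (0.979) and miR-92b-3p (0.977). For miR-19b-3p the most alike was miR-20a-5p (r = 0.995), before miR-17-3p (0.986), miR-17-5p (0.984), miR-20b-5p (0.977) and then miR-106a-5p (0.97). Of these 8 miRNAs, 7 belong to the 2 clusters, and miR-92b-3p shares the seed of miR-92a-3p.

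Outside both clusters the next most alike were miR-21a-3p (r = 0.951) and miR-1897-5p (0.93) for miR-19a-3p, and miR-92b-3p (0.957), miR-21a-3p (0.922) and miR-700-3p (0.907) for miR-19b-3p. MiR-21a-3p was above background on 5 of 9 arrays. The most opposed were miR-135a-2-3p, with r of -0.94 to miR-19a-3p and -0.91 to miR-19b-3p, and miR-5121, with r of -0.93 and -0.91. MiR-135a-2-3p was above background on 6 of 9 arrays. Its log2 level had an SD of only 0.16 over the arrays, against 0.94 for miR-5121. The SD was also small for miR-1897-5p (0.15), miR-700-3p (0.20) and miR-21a-3p (0.24), so a high r there goes with small changes. MiR-363-3p, a guide of the X chromosome cluster with the seed of miR-92a-3p, had r of 0.12 and 0.02. It read near background on every array, so these values say little about that guide.

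**Figure D5:**
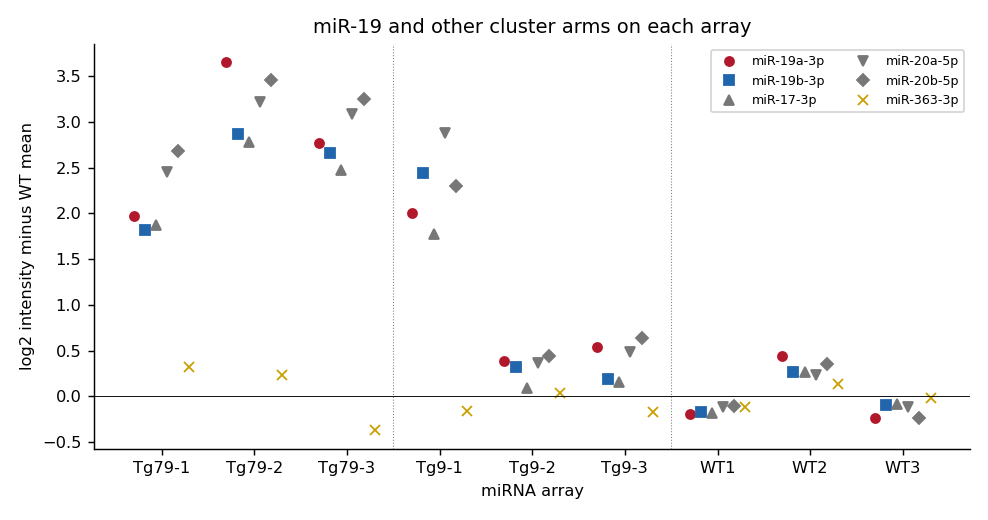
Log2 intensity minus the WT mean on each miRNA array for the miR-19 guides, 3 arms chosen for their likeness to them and miR-363-3p. The miR-19 points move with the 3 arms on every array, high in Tg79 and on Tg9-1 and near 0 on the other Tg9 arrays and in WT. MiR-363-3p, which read near background on every array, stays close to 0, with group means of 0.06 in Tg79 and -0.10 in Tg9.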

How the data were processed

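Spleen B cells were taken with magnetic beads, and their RNA, extracted with Trizol, carried Cy5, per the labels. For each spot the deposited scanner files give an intensity at 635 nm, the median over pixels, and a background, merged over 3 scanner gains per the file headers, with no normalisation. The deposited series table holds the authors' processed log2 values, whose making no label or header records. Its identifiers stood 5 rows from their values: Spearman's rho with the scanner values was 0.136 to 0.17 as listed and 1 after moving them, and it was used moved, as an alternative.

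Intensities were corrected with normexp on the foreground (offset 50), taken to log2 and quantile normalised in R 4.3.3 with limma 3.58.1. There is 1 spot per probe. A limma model of 3 group means with empirical Bayes moderation gave every comparison, two-sided, with Benjamini-Hochberg adjustment over 501 probes and adjusted p-values under 0.05 were called. It was tested on simulated data. Within-array differences were tested by exact two-sided permutation of array labels. Replicate numbers are not said to pair arrays. Deviations of same-numbered arrays correlated at -0.427 to 0.377. Arrays with different numbers were not correlated for comparison, so these values cannot exclude pairing. No 2 of the 9 arrays held identical values. The number of arrays limits the precision.

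The members, lists and tests were chosen with earlier results of these data known. Named miRNAs are the members, their star strands, the other arms of both clusters, the 5 most and 2 least alike miRNAs and the marker lists. The 9 mRNA arrays were not used, since nothing given pairs their probes with gene names, so miR-19 targets were not analysed here. Alternatives were other background corrections, scalings, filters, models and blocks, leaving out arrays and the authors' values; raw intensities, and the values of the other arms and star strands with Tg9-1 alone, were added after seeing the data.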

Additional observations from a re-analysis of the deposited data

How the results depend on the processing

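With 24 alternatives, every log2 difference of either member from WT stayed above 0. For Tg79 against WT, the miR-19a-3p call was lost with the deposited background column (0.30), with no filter (2.80), with the replicate block (2.80, adjusted p = 0.101) and with slide as a factor (2.36). MiR-19b-3p gained a call with array quality weights (2.63), slide as a random block (2.48), cyclic loess (2.90), the authors' values (2.09), 75th percentile scaling (2.83), raw intensity (2.07), leaving out both arrays labelled Tg9-2 and Tg9-3 (2.44) and, at 2.45, with a filter on all 9 arrays, a trended robust fit or only the groups compared. Transgenic against WT was called with array quality weights for miR-19a-3p (2.25) and miR-19b-3p (1.98). Without those 2 Tg9 arrays the transgenic difference of miR-19b-3p was 2.46, which leaving them out raises by construction. Tg79 against Tg9 was called for miR-19a-3p with slide as a random block (1.91), and for miR-19b-3p it turned to -1.19 with the background column and to -0.0391 without those 2 Tg9 arrays. The cause of these changes was not tested. With the random block, the estimated correlation within slides was -0.14, and the SE of that miR-19a-3p difference was 0.41 against 0.54 as reported. A negative value narrows the SE between slides, so calls gained with this block do not show that a difference outlasts a slide effect. Leaving out 1 array gave, for Tg79 against WT, 2.40 to 3.24 for miR-19a-3p and 2.20 to 2.79 for miR-19b-3p. For Tg79 against Tg9 it gave 1.05 to 2.24 for miR-19b-3p. Same-numbered arrays are not said to be paired. The replicate block left 2.45 for miR-19b-3p (adjusted p = 0.131) and 0 miRNAs called by limma for Tg79 against WT.

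For Tg79 against WT, the 23 miRNAs called became 108 with the authors' values (16 higher), 185 with 75th percentile scaling (166 higher), 79 with array quality weights, 63 with raw intensity, 39 with slide as a random block, and 0 with the background column, no filter or slide as a factor. The median over all miRNAs moved to -0.84 with the authors' values and to 0.48 with 75th percentile scaling, and the differences of 2.09 and 2.83 for miR-19b-3p there are to be read against these medians.

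Differences within arrays changed sign easily. With the background column, miR-19a-3p minus miR-19b-3p turned to -0.599 in Tg79 and -1.25 in all transgenic arrays against WT. MiR-19a-3p minus miR-17-5p turned to 0.482 in Tg79, and miR-19b-3p minus miR-17-5p to 1.08 in Tg79, 1.00 in Tg9, 1.04 in all transgenic arrays and 0.0803 for Tg79 against Tg9. Against miR-92a-3p, Tg79 against Tg9 turned to 2.64 and 1.33, and miR-19b-3p in all transgenic arrays passed at 2.60. With cyclic loess, miR-19a-3p minus miR-19b-3p turned to -0.0834 in Tg79, 0.00665 in Tg9, -0.0384 in all transgenic arrays and -0.0900 for Tg79 against Tg9. For Tg9 against WT it turned to 0.0120 with no correction, 0.0836 with the authors' values, 0.0997 with 75th percentile scaling and 0.0870 with raw intensity, and for Tg79 against Tg9 to -0.0697 with 75th percentile scaling and -0.0283 with raw intensity. MiR-19a-3p minus miR-17-5p turned in Tg9 to 0.0417 with the authors' values, to 0.0708 with 75th percentile scaling and to 0.0573 with raw intensity, and for Tg79 against Tg9 to -0.157, -0.417 and -0.374 with these, in that order, and -0.436 with cyclic loess. MiR-19b-3p minus miR-92a-3p in Tg79 turned to -0.0167 with no correction. Leaving out 1 array gave -0.175 to 0.181 for miR-19a-3p minus miR-19b-3p in Tg9. For miR-19a-3p minus miR-17-5p it gave -0.328 to 0.227 in Tg79, -0.435 to 0.118 in Tg9 and -0.302 to 0.427 for Tg79 against Tg9. For miR-19b-3p it gave -0.443 to -0.204 minus miR-17-5p in all transgenic arrays and -0.0683 to 0.148 minus miR-92a-3p in Tg79. Alternatives that alter only the linear model were not run on these differences.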
